A study of Mus musculus with 9 samples.

Results

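Cell junction genes were followed in the lungs of mice given interleukin-33 (IL-33), with or without LM8, which the series title describes as an inhibitor of MyD88, the adaptor protein through which the IL-33 receptor signals. The members were chosen by symbol: the claudins, the zonula occludens scaffolds of tight junctions, Ocln, Marveld2, Marveld3, F11r, Jam2, Jam3, Cgn and Cgnl1, the numbered cadherins, the desmosomal genes, and the catenins Ctnna1 and Ctnnb1. The rule found 69 of the 34638 genes in the table, and 41 of them reached the minimum level for testing, a mean of 0.5 FPKM over all mice. FPKM, fragments scaled to transcript length and library size, is a level per length, so that genes can be set side by side.

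Bulk RNA of whole lung was sequenced from 9 wild-type (WT) C57BL/6 mice in 3 groups of 3, here called PBS, IL-33 and IL-33+LM8. PBS mice received phosphate-buffered saline and no IL-33 or LM8. IL-33 mice received 0.5 µg of recombinant mouse IL-33 into the trachea on days 0, 1, 2 and 3. IL-33+LM8 mice received the same IL-33 and, before it, an intraperitoneal injection of LM8 at 10 mg/kg. For the IL-33 model the methods describe female mice of 6 to 8 weeks, instilled with 25 µL and examined on day 4, while the age, sex and day of the IL-33+LM8 mice, and what IL-33 mice received in place of LM8, are not given in the sources used here. Nothing in the design gives LM8 without IL-33, so that an effect of LM8 alone cannot be told apart from its effect on IL-33 mice.

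Tight junctions seal the space between neighbouring epithelial or endothelial cells near their apical side. Claudins form the strands and decide whether they seal or pass ions, occludin and the MARVEL proteins sit in the same strands, and the zonula occludens (ZO) proteins and the cingulins tie them to actin. Adherens junctions hold cells together through cadherins, whose tails bind beta-catenin (Ctnnb1) and, through it, alpha-catenin (Ctnna1). Desmosomes anchor keratin filaments through desmosomal cadherins, plakoglobin (Jup), plakophilins and desmoplakin (Dsp), and they are abundant in airway epithelium and in heart muscle. In the lung these genes mark the barrier of the alveolus, of the airway and of the vessels, and the alveolar claudin Cldn18 and the vascular claudin Cldn5 are known for it.

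With IL-33, most tested junction genes were lower and a few were higher. Ocln, Cldn18, Cgn, Tjp1, Cdh5 and Jup fell to between 0.474 and 0.577 of the PBS mean FPKM. Cdh16, Cldn23, Cldn8 and Cdh13, which are less abundant, fell further, to between 0.284 and 0.399 of it. Cldn1 and Cldn2 rose to 2.39-fold and 3.78-fold of the PBS mean, Cldn2 from a mean under the minimum for testing. In IL-33+LM8 mice the genes that had fallen mostly stood between the other groups, Cldn1 stood at the level of IL-33 mice, and Cdh24, a cadherin that had risen, was back at the PBS level. Cdh1 (E-cadherin) and Ctnnb1 did not pass the test in any comparison.

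The starts of some genes that fell or rose are shown first, as the bases upstream of the annotated transcription start (RefSeq, build GRCm38.p6). Ocln, Cldn18 and Cgn fell with the smallest adjusted p, while Cldn1 and Cldn2 rose. Those of Cdh16, Cldn23, Cldn8 and Cdh13, which fell further, are not shown. The table of starts held 42 of the 69 members. Each sequence runs 5′ to 3′ on the gene's own strand and ends at the base before the start. Capitals mark exact matches, on either strand, to motifs that were searched: the E-box CAGGTG of Snail and Zeb proteins, the STAT6 motif TTCNNNNGAA, the grainyhead-like motif AACNGGTT, the NKX2-1 motif CAAGTG and the forkhead motif TGTTTAC.
Cldn1, chr16:26371840-26372089, minus strand: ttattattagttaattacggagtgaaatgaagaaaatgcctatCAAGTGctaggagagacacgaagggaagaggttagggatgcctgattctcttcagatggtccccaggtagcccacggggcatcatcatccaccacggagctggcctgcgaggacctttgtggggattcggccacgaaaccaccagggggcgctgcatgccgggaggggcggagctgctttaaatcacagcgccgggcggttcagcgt
Cldn2, chrX:139800558-139800807, plus strand: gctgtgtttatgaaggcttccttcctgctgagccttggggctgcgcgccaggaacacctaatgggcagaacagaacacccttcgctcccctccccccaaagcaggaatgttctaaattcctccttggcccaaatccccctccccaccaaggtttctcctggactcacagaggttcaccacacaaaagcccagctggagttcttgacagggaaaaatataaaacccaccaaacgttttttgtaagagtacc
Cldn18, first start, chr9:99717268-99717517, minus strand: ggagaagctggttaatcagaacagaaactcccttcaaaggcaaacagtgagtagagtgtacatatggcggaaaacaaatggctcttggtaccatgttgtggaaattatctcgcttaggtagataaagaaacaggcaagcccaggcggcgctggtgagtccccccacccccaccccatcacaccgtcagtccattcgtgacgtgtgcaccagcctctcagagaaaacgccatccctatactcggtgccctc
Cldn18, second start, chr9:99710064-99710313, minus strand: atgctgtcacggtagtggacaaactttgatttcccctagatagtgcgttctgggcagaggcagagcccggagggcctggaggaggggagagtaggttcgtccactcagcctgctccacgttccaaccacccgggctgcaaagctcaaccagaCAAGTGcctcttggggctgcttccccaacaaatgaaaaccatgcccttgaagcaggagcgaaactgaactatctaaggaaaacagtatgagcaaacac
Cgn, chr3:94786483-94786732, minus strand: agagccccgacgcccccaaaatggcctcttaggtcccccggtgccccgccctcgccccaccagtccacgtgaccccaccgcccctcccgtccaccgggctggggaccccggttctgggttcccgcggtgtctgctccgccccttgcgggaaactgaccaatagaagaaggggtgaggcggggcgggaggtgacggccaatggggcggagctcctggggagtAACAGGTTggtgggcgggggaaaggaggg
Ocln, site 213 bases before the start, chr13:100552694-100552723, minus strand: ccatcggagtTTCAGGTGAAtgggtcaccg
Ocln, site 68 bases before the start, chr13:100552549-100552578, minus strand: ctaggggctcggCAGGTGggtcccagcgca

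Of Ocln only 30 bases around each E-box are printed. At the site 213 bases before the start, the E-box lies inside the STAT6 match TTCAGGTGAA, so that the same letters count for both motifs. The capitals of Cldn1 and of the second Cldn18 start mark the NKX2-1 motif, at 207 and 98 bases before the start, and those of Cgn mark the grainyhead-like motif at 29 bases. Cldn2 and the first Cldn18 start hold none of the motifs in this window. Within 250 bases upstream, the E-box stood in 17.22% of 32851 promoters in the table and in 19.3% of the 57 promoters of junction genes, the STAT6 motif in 5.85% and 7.0%, the grainyhead-like motif in 1.79% and 3.5%, the NKX2-1 motif in 11.61% and 15.8%, and the forkhead motif in 3.17% and 0.0%. These are matches of letters and not evidence of binding. The gene-level counts do not tell the starts of Cldn18 or Ocln apart.

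Counted reads per library ranged from 61767006 to 73869252 for PBS, from 53877663 to 66029783 for IL-33 and from 59753648 to 90607218 for IL-33+LM8. PBS replicate 3, IL-33 replicate 1 and IL-33+LM8 replicate 3, the deepest library of each group, deviated from their group means together over all genes (correlation of deviations 0.647, 0.669 and 0.672 for the 3 pairs), and the counts that follow are also given without all 3. Lung markers were present in every library: the summed FPKM of 7 alveolar type 2 genes was 13361 to 14447 in PBS mice, 7212 to 7433 in IL-33 mice and 11779 to 12950 in the IL-33+LM8 mice. By the test described below, 3 of these 7 genes fell with IL-33, and the median log2 fold change of the list was -0.17. The sum therefore does not stand for each gene. The summed FPKM of 6 general epithelial genes was 286 to 327, 283 to 311 and 260 to 281, with 2 of the 6 rising and 2 falling with IL-33. All 4 leukocyte genes of the marker list rose with IL-33, and their sum went from 74.6 to 83.4 FPKM in PBS mice to 326 to 352 in IL-33 mice and 204 to 217 in the IL-33+LM8 mice. Neutrophil markers took another course, with all 4 genes called higher in each comparison and a sum of 16.2 to 21.5 FPKM in PBS mice, 60.3 to 81.1 in IL-33 mice and 640 to 740 in the IL-33+LM8 mice. In bulk lung, fewer cells of a type and less RNA per cell cannot be told apart, and the part of cell makeup in the changes given here was not tested.

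**Figure D1:**
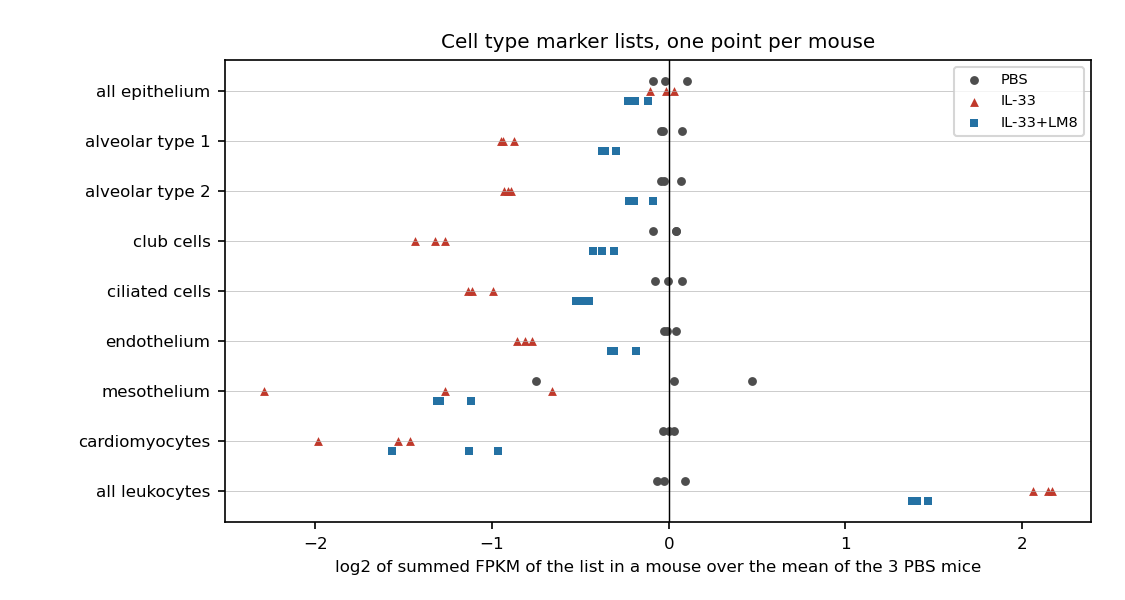
Summed FPKM of 9 cell type marker lists in each of 9 mice, as log2 over the mean of the 3 PBS mice (horizontal axis), with 1 point per mouse and a colour per group. The alveolar, club, ciliated, endothelial and cardiomyocyte lists stood lower in all IL-33 mice than in all PBS mice, the leukocyte list stood higher, and the general epithelial list overlapped between these groups. These are sums, and of the 7 alveolar type 2 genes 3 fell with IL-33.

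Each comparison was tested with edgeR's quasi-likelihood test on the deposited counts of its 6 mice, with Benjamini-Hochberg adjustment over all tested genes. In what follows a gene rose or fell where its adjusted p was under 0.05, and it is named as called where its log2 fold change was also at least 1 in size. Errors of log2 fold changes are standard errors, and the replicates are taken as separate mice, as the labels imply. For a single gene in 3 against 3 mice an exact two-sided permutation test cannot go below p = 0.1, so that the fit across all genes was used. The 3 comparisons share their groups, and their values are therefore set side by side without a test of their likeness.

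Comparing IL-33 with PBS asks what the cytokine did to the junction genes. Of the 41 tested members, 24 fell, 4 rose and 13 did not pass, while over all 16831 tested genes 27.2% fell and 27.4% rose. The median log2 fold change of the members was -0.52, against -0.01 over all genes. At a log2 fold change of at least 1, 6 members were called lower (Cdh5, Cdh13, Cdh16, Ocln, Cldn23 and Cldn8) and 2 higher (Cldn1 and Cldn2), beside 6.24% of all tested genes called lower and 10.8% called higher. Cldn2 reached the minimum level only through the groups in which it is high, so that its call adds no support to the count. All 8 calls held when any 1 mouse was left out, and 25 of the 28 genes passed in all of those fits (Cldn10 and Marveld2 were among those that did not). Without the 3 libraries that deviated together, 25 members passed and 9 were called.

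Comparing IL-33+LM8 with IL-33 asks what LM8 changed in mice given IL-33. Here 16 of the 41 members rose, 2 fell and 23 did not pass, beside 12.6% of all tested genes that rose and 13.9% that fell, and the members' median log2 fold change was 0.21, against -0.01 over all genes. Only Cdh24 was called, on the lower side, where 3.93% of all tested genes were called, and none was called higher, where 1.46% were. At an unadjusted p under 0.05 the count higher would be 1, and DESeq2 called 1 (Cldn23) while limma on log2(FPKM + 1) or log2(FPKM + 0.1) called 0. This comparison was less steady than the first: 11 of the 18 genes passed in every fit that left out 1 mouse, 11 genes in all passed without IL-33 replicate 1, and 7 passed without the libraries that deviated together.

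Comparing IL-33+LM8 with PBS asks what remained different. In this comparison 16 members fell, 3 rose and 22 did not pass, beside 13.4% and 16.3% of the 16829 genes tested, and their median was -0.22, against 0.00 over all genes. Cldn1 and Cldn2 were called higher (5.87% of all tested genes) and Cdh16 lower (1.46%). Of the 19 genes, 12 passed in every fit that left out 1 mouse, 12 passed without IL-33+LM8 replicate 3, and 12 passed without the libraries that deviated together. Same-numbered mice deviated together in this comparison, with correlations of 0.307, 0.322 and 0.672. The largest was that of PBS and IL-33+LM8 replicate 3, among the deepest libraries, which deviated as much with IL-33 replicate 1 (0.647 and 0.669). Whether the numbers mark pairs was therefore not settled. With the replicate number as a block 23 genes passed, Ctnna1, Cldn5, F11r and Cgnl1 being added.

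**Figure D2:**
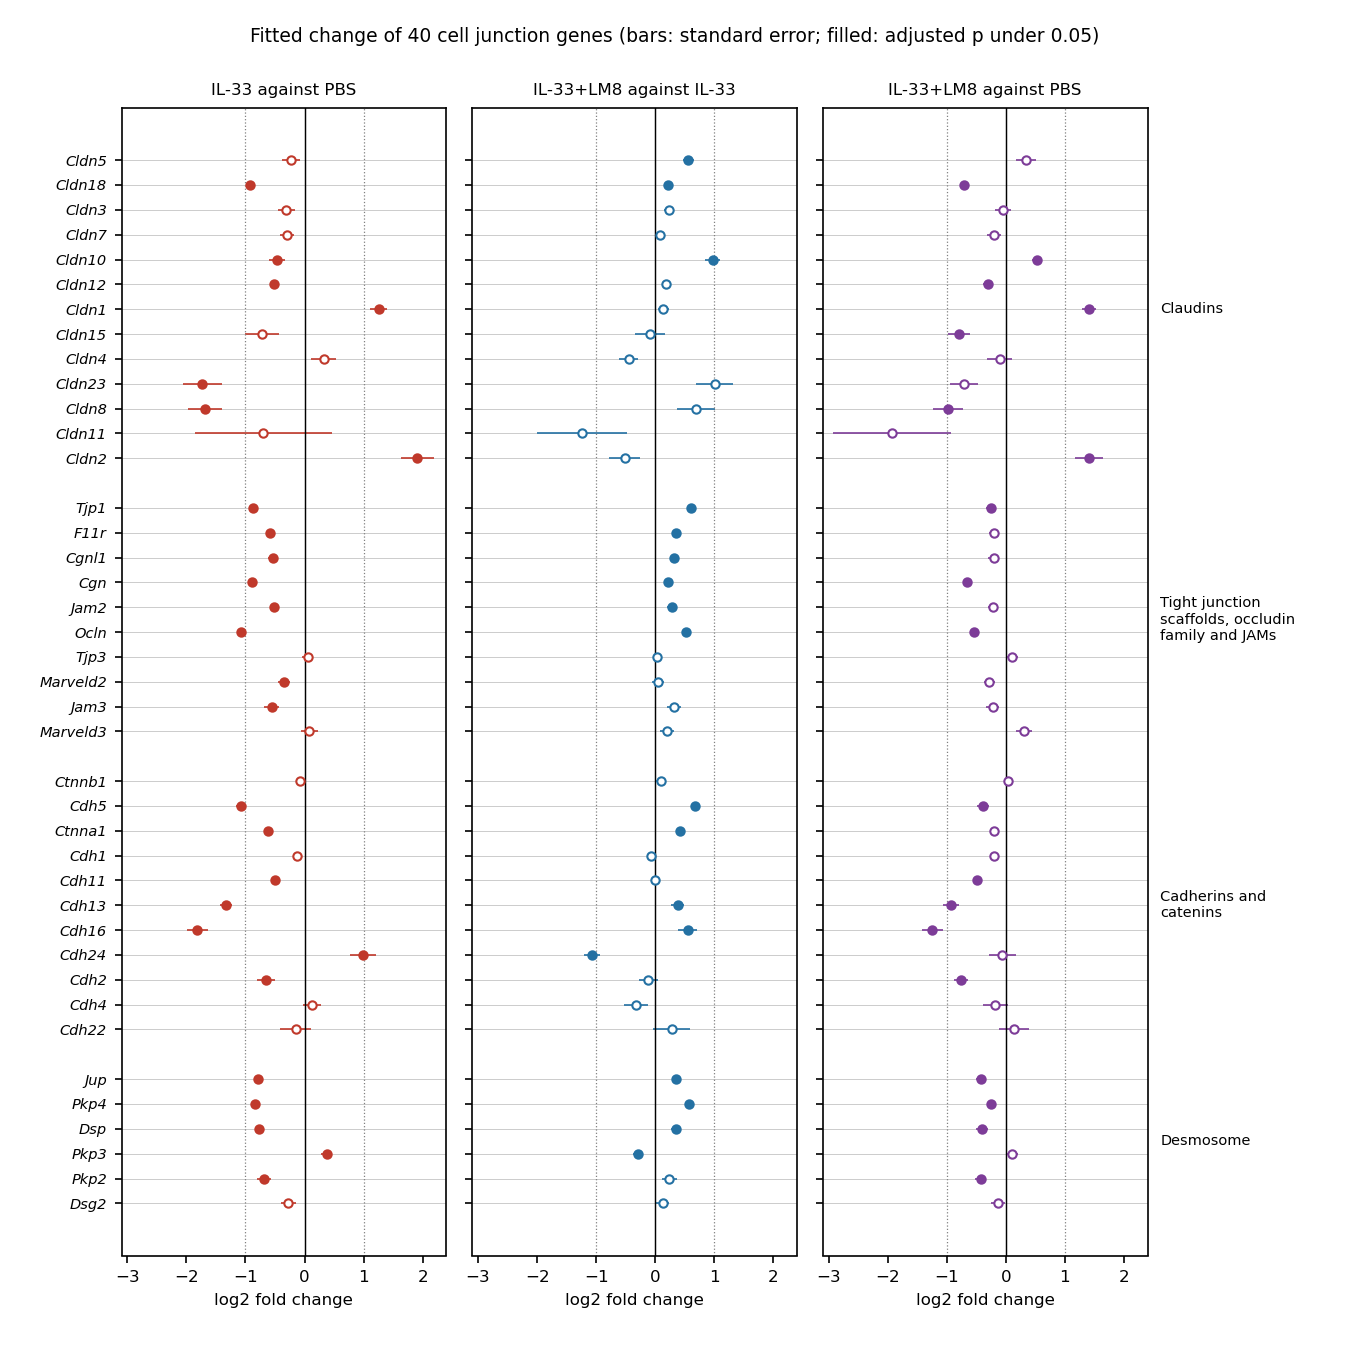
Fitted log2 fold change (horizontal axis) with its standard error for 40 cell junction genes, in panels for the 3 comparisons; filled points have an adjusted p under 0.05 and dotted lines mark a log2 fold change of 1 in either direction. Most points stood left of 0 with IL-33 against PBS, with Cldn1 and Cldn2 far to the right, and most stood slightly right of 0 with IL-33+LM8 against IL-33.

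The claudins made up a summed level of 409 ± 47.2 FPKM in PBS mice, 304 ± 10.3 in IL-33 mice and 402 ± 25.4 in the IL-33+LM8 mice (SD, n = 3 each). The vascular claudin Cldn5 held 42.7% ± 5.59 of that sum in PBS mice, 49.2% ± 0.886 in IL-33 mice and 54.8% ± 3.00 in the IL-33+LM8 mice. The alveolar claudin Cldn18 held 31.0% ± 4.34, 21.7% ± 0.400 and 19.0% ± 0.825. No mouse given IL-33, with or without LM8, reached the Cldn18 share of any PBS mouse.

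Cldn18, the claudin of alveolar epithelium, was at 129, 124 and 123 FPKM in the PBS mice, 65.8, 65.0 and 67.2 in the IL-33 mice and 74.7, 80.1 and 74.3 in the IL-33+LM8 mice. The 3 groups did not overlap. It fell with IL-33 (log2 fold change -0.93 ± 0.05, adjusted p = 8.25e-06), rose slightly with LM8 (0.21 ± 0.06, adjusted p = 0.0295, up to 0.101 when 1 mouse was left out) and stayed under PBS (-0.70 ± 0.07, adjusted p = 0.000474). The alveolar type 1 marker list moved in the same direction, with 4 of its 5 genes falling and 1 (Pdpn) rising with IL-33, and its sum was 1208 to 1311 FPKM in PBS mice, 647 to 678 in IL-33 mice and 959 to 1011 in the IL-33+LM8 mice. In IL-33+LM8 mice the sum of that list therefore stood nearer its PBS level than Cldn18 did, a difference that was not tested. The sum does not stand for each gene: against PBS with LM8, 3 of the 5 fell and 1 rose. Of all tested genes 13.4% fell and 16.3% rose there.

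Cldn5, the sealing claudin of blood vessels, was at 140, 165 and 224 FPKM in the PBS mice, 147, 144 and 158 in the IL-33 mice and 193, 237 and 232 in the IL-33+LM8 mice. The PBS mice spread over both other groups. The difference with IL-33 did not pass (-0.23 ± 0.15, adjusted p = 0.24), and Cldn5 rose with LM8 (0.56 ± 0.09, adjusted p = 0.00399). Against PBS the adjusted p was 0.164 without and 0.0285 with the replicate block (0.34 ± 0.17 without it).

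Cldn3 and Cldn7, claudins of simple and airway epithelium, passed in no comparison. Cldn3 was at 47.2, 69.4 and 63.4 FPKM in the PBS mice, 45.4, 46.7 and 53.4 in the IL-33 mice and 58.8, 59.9 and 52.9 in the IL-33+LM8 mice (-0.31 ± 0.14 with IL-33, adjusted p = 0.0989). It overlaps Wbscr25 on the other strand, and since no strand setting is stated, reads of the 2 genes cannot be told apart. The same limit holds for other members that overlap another gene, among them Tjp1, Dsp, Jam3, Dsg2 and Marveld2. Cldn7 was at 11.4, 15.9 and 13.8 FPKM, then 11.7, 10.9 and 10.9, then 12.3, 11.7 and 11.4 (-0.30 ± 0.12 with IL-33, adjusted p = 0.0695). For both genes the lowest PBS mouse stood within the range of the IL-33 mice.

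Cldn1 (ENSMUSG00000022512), a sealing claudin of airway and skin epithelium, was at 3.19, 2.43 and 3.07 FPKM in the PBS mice, 7.26, 6.00 and 7.53 in the IL-33 mice and 7.35, 8.01 and 7.56 in the IL-33+LM8 mice. Every mouse given IL-33 was above every PBS mouse, and the groups with and without LM8 overlapped. It rose with IL-33 (1.25 ± 0.14, adjusted p = 0.000215) and was higher than PBS with LM8 too (1.41 ± 0.12, adjusted p = 0.000299), and between these groups the difference did not pass (0.14 ± 0.10, adjusted p = 0.346). The goblet cell markers, of mucous airway epithelium, were high in the same groups: their summed FPKM was 7.04 to 16.6 in PBS mice, 422 to 467 in IL-33 mice and 504 to 514 in the IL-33+LM8 mice, and 4 of 4 tested genes were called higher in both comparisons with PBS. Their part in the Cldn1 values was not tested. The ratio of Cldn18 to Cldn1 FPKM was 43.8 ± 6.08 in PBS mice, 9.61 ± 1.07 in IL-33 mice and 10.0 ± 0.174 in the IL-33+LM8 mice (SD, n = 3 each).

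Cldn2 (ENSMUSG00000047230), which forms channels for cations and water rather than a seal, was at 0.236, 0.321 and 0.253 FPKM in the PBS mice, 0.917, 1.35 and 0.795 in the IL-33 mice and 0.610, 0.834 and 0.697 in the IL-33+LM8 mice. It was low in every library, its highest count was 283 reads, and it reached the level for testing through the groups in which it is high. Its log2 fold change was 1.91 ± 0.28 with IL-33 (adjusted p = 0.000932) and 1.41 ± 0.25 with IL-33 and LM8 against PBS (adjusted p = 0.00563). The groups with and without LM8 overlapped, and their difference did not pass (-0.52 ± 0.26, adjusted p = 0.194).

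Cldn8 and Cldn23, both known from tight epithelia such as kidney tubule, colon and skin, were called lower with IL-33. Cldn8 was at 1.67, 1.93 and 1.41 FPKM in the PBS mice, 0.557, 0.344 and 0.664 in the IL-33 mice and 1.09, 0.634 and 0.801 in the IL-33+LM8 mice (-1.68 ± 0.29, adjusted p = 0.00207). Cldn23 was at 1.62, 2.61 and 1.84 FPKM, then 0.450, 0.874 and 0.496, then 1.34, 1.02 and 1.32 (-1.73 ± 0.33, adjusted p = 0.00371). For both, all IL-33 mice were under all PBS mice. With LM8 neither difference from IL-33 passed (0.69 ± 0.33, adjusted p = 0.168 for Cldn8; 1.01 ± 0.31, adjusted p = 0.0515 for Cldn23), although no IL-33+LM8 mouse had as little Cldn23 as any IL-33 mouse.

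Of the remaining tested claudins, singled out here after their values were seen, Cldn10 ended above PBS with LM8. This claudin, of which ion-conducting forms are known, was at 8.85, 8.90 and 8.01 FPKM in the PBS mice, 6.47, 7.13 and 5.12 in the IL-33 mice and 12.1, 13.1 and 11.6 in the IL-33+LM8 mice. The groups did not overlap. It fell with IL-33 (-0.46 ± 0.13, adjusted p = 0.0206, up to 0.059 when 1 mouse was left out), rose with LM8 against IL-33 (0.97 ± 0.13, adjusted p = 0.0015) and, with Cldn1 and Cldn2, was 1 of the 3 tested members that rose with LM8 against PBS without the replicate block (0.53 ± 0.09, adjusted p = 0.00534). Cldn12 fell with IL-33 from 7.72 ± 0.560 to 5.43 ± 0.191 FPKM (-0.51 ± 0.08, adjusted p = 0.00107), and Cldn4 did not pass (0.33 ± 0.21, adjusted p = 0.232).

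Cldn15 and Cldn11 varied widely between mice of some groups. Cldn15 was at 7.66, 4.69 and 6.07 FPKM in the PBS mice, 3.88, 4.94 and 2.35 in the IL-33 mice and 3.55, 3.43 and 3.51 in the IL-33+LM8 mice. The PBS and IL-33 mice overlapped, while the IL-33+LM8 mice were close to each other and under all PBS mice. Its difference with IL-33 did not pass (-0.72 ± 0.29, adjusted p = 0.0716), and it fell with LM8 against PBS (-0.80 ± 0.19, adjusted p = 0.018, up to 0.0565 when 1 mouse was left out). Cldn11 was at 2.04, 1.39 and 0.0554 FPKM in the PBS mice, 0.202, 1.63 and 0.321 in the IL-33 mice and 0.254, 0.426 and 0.224 in the IL-33+LM8 mice. The summed FPKM of 4 mesothelial markers, cells of the lung surface, also spread within groups, from 30.1 to 70.0 in PBS mice, from 10.4 to 32.0 in IL-33 mice and from 20.3 to 23.3 in the IL-33+LM8 mice. That of 3 markers of Schwann cells, of nerve sheaths, ran from 1.49 to 7.71, from 0.914 to 7.18 and from 0.911 to 2.32. The part of either cell type in the Cldn15 and Cldn11 values was not tested.

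**Figure D3:**
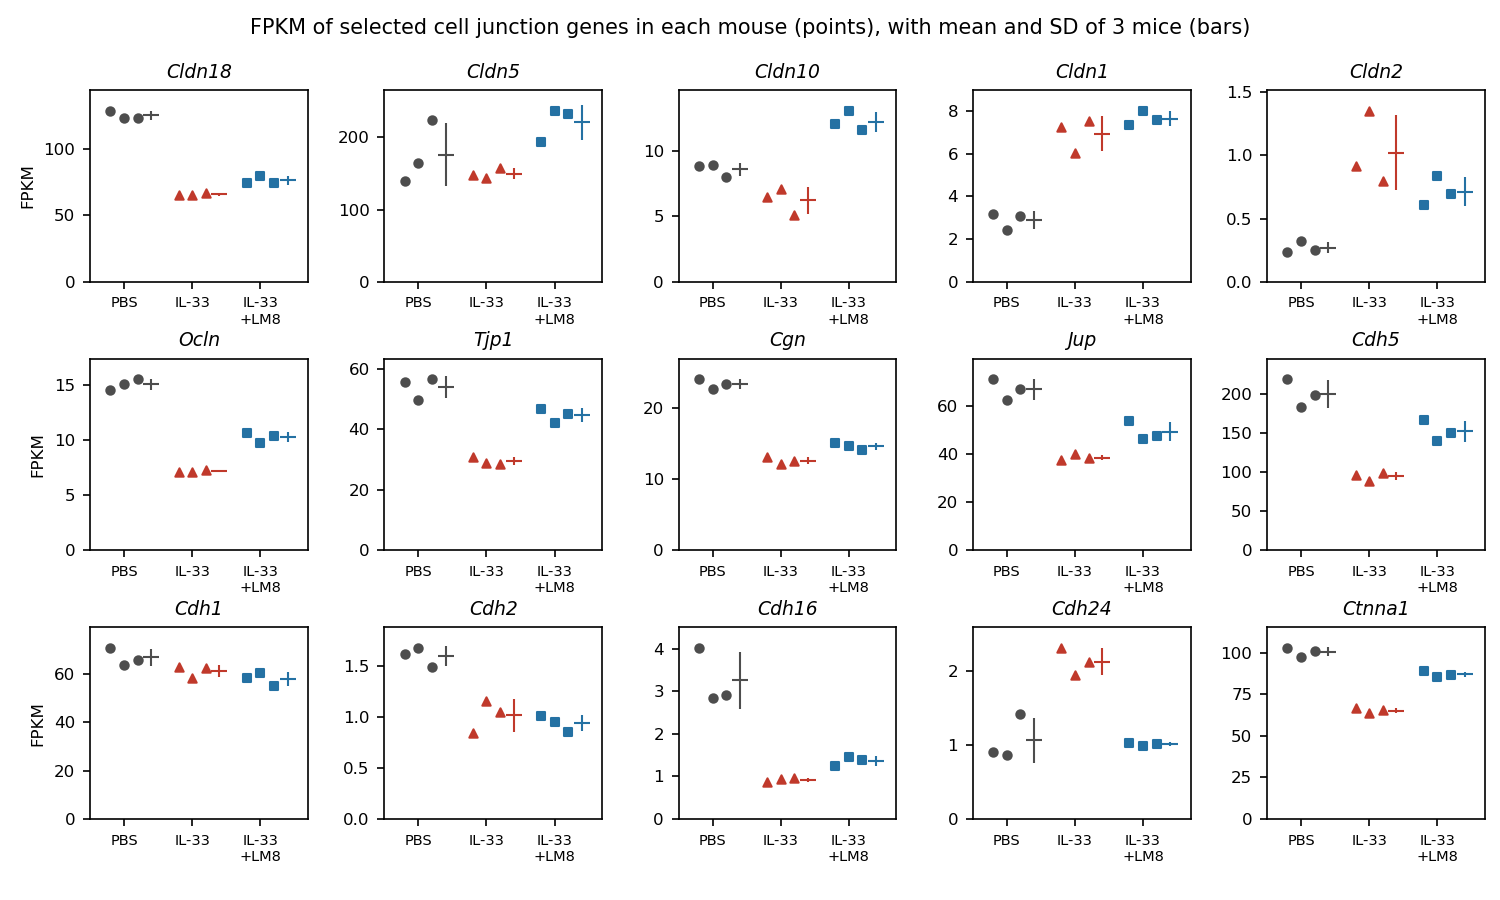
FPKM (vertical axis, from 0) of 15 cell junction genes in each mouse, with points for the 3 mice of a group and a bar for mean and SD. Cldn18, Ocln, Tjp1, Cgn, Jup and Cdh5 stood lowest in IL-33 mice, Cldn1 stood high in both groups given IL-33, Cdh24 stood high in IL-33 mice without LM8, and the Cdh1 groups lay close together.

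The other tight junction genes were mostly lower with IL-33. Of the 11 members of this class, all of which were tested, 9 fell, none rose and 2 (Tjp3 and Marveld3) did not pass. Over all tested genes 27.2% fell and 27.4% rose. None of the class was higher at an unadjusted p under 0.05, by DESeq2 or by limma either. With LM8 against IL-33, 6 rose and 5 did not pass, beside 12.6% of all tested genes that rose. Against PBS, 3 still fell (Ocln, Cgn and Tjp1) and 8 did not pass, beside 13.4% of all tested genes that fell.

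Ocln (ENSMUSG00000021638), the gene of occludin, was at 14.5, 15.1 and 15.5 FPKM in the PBS mice, 7.07, 7.12 and 7.28 in the IL-33 mice and 10.6, 9.75 and 10.3 in the IL-33+LM8 mice. The groups were tight and did not overlap. It fell with IL-33 by 1.07 on the log2 scale (SE 0.05, adjusted p = 6.02e-06), rose with LM8 (0.52 ± 0.06, adjusted p = 0.00113) and remained under PBS (-0.54 ± 0.06, adjusted p = 0.000903). It was the only member of the class called at a log2 fold change of 1. Its 2 E-box sites are shown above, and E-boxes also lay upstream of Cldn7, Tjp3 and Cldn4, none of which passed with IL-33. F11r and Pkp4, which fell, held an E-box too. The part of these sites in the changes was not tested.

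Tjp1, the gene of ZO-1, the scaffold that binds claudins and occludin to actin, was at 55.7, 49.7 and 56.6 FPKM in the PBS mice, 31.0, 28.8 and 28.5 in the IL-33 mice and 46.9, 42.1 and 45.2 in the IL-33+LM8 mice. All 3 groups were apart. It fell with IL-33 (-0.88 ± 0.07, adjusted p = 3.86e-05) and rose with LM8 (0.60 ± 0.06, adjusted p = 0.000422). Against PBS its difference was small (-0.26 ± 0.08, adjusted p = 0.0424, up to 0.125 when 1 mouse was left out). The study measured the ZO-1 and occludin proteins, in other settings than this one. House dust mite lowered both in human primary bronchial epithelial cells. Otud6a knockout restored both in lungs of the acute house dust mite model. The values here are RNA from the IL-33 model. Tjp3 (ZO-3) was at 8.22 ± 1.01, 8.53 ± 0.215 and 8.72 ± 0.601 FPKM and did not pass (0.05 ± 0.09 with IL-33, adjusted p = 0.656), with Apba3 overlapping it on the other strand.

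Cgn, the gene of cingulin, an adaptor between ZO proteins and actomyosin, is given although it lies outside the rule for named genes. It was at 24.0, 22.7 and 23.3 FPKM in the PBS mice, 13.1, 12.1 and 12.6 in the IL-33 mice and 15.1, 14.6 and 14.1 in the IL-33+LM8 mice. With IL-33 it fell (-0.89 ± 0.05, adjusted p = 1e-05) and, like Cldn18, stayed nearer to the IL-33 than to the PBS level with LM8 (0.21 ± 0.05 against IL-33, adjusted p = 0.0258, up to 0.0792 when 1 mouse was left out; -0.66 ± 0.06 against PBS, adjusted p = 0.000286). Its relative Cgnl1 (paracingulin), which also occurs in vessels, was at 29.0, 23.7 and 27.0 FPKM, then 17.9, 18.8 and 18.3, then 24.2, 22.2 and 22.1. Cgnl1 fell with IL-33 (-0.54 ± 0.08, adjusted p = 0.00108) and rose with LM8 (0.32 ± 0.05, adjusted p = 0.00448). Against PBS the adjusted p of Cgnl1 was 0.127 without and 0.0387 with the replicate block.

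The junctional adhesion molecules, immunoglobulin-type proteins of epithelial and endothelial tight junctions, fell by similar amounts. F11r (JAM-A), the most abundant, was at 51.6, 47.7 and 48.9 FPKM in the PBS mice, 32.2, 33.3 and 34.0 in the IL-33 mice and 46.8, 39.3 and 41.4 in the IL-33+LM8 mice, with no overlap between groups. Its log2 fold change was -0.58 ± 0.05 with IL-33 (adjusted p = 9.24e-05) and 0.36 ± 0.07 with LM8 against IL-33 (adjusted p = 0.00844). With LM8 against PBS its adjusted p was 0.0877 without and 0.016 with the replicate block. Jam2 (-0.52 ± 0.07, adjusted p = 0.000523) and Jam3 (-0.55 ± 0.13, adjusted p = 0.00931) also fell with IL-33. Marveld2 (tricellulin), which seals the corners where 3 cells meet, fell from 3.95 ± 0.0700 to 3.10 ± 0.230 FPKM (-0.35 ± 0.10, adjusted p = 0.0199, up to 0.0685 when 1 mouse was left out).

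**Figure D4:**
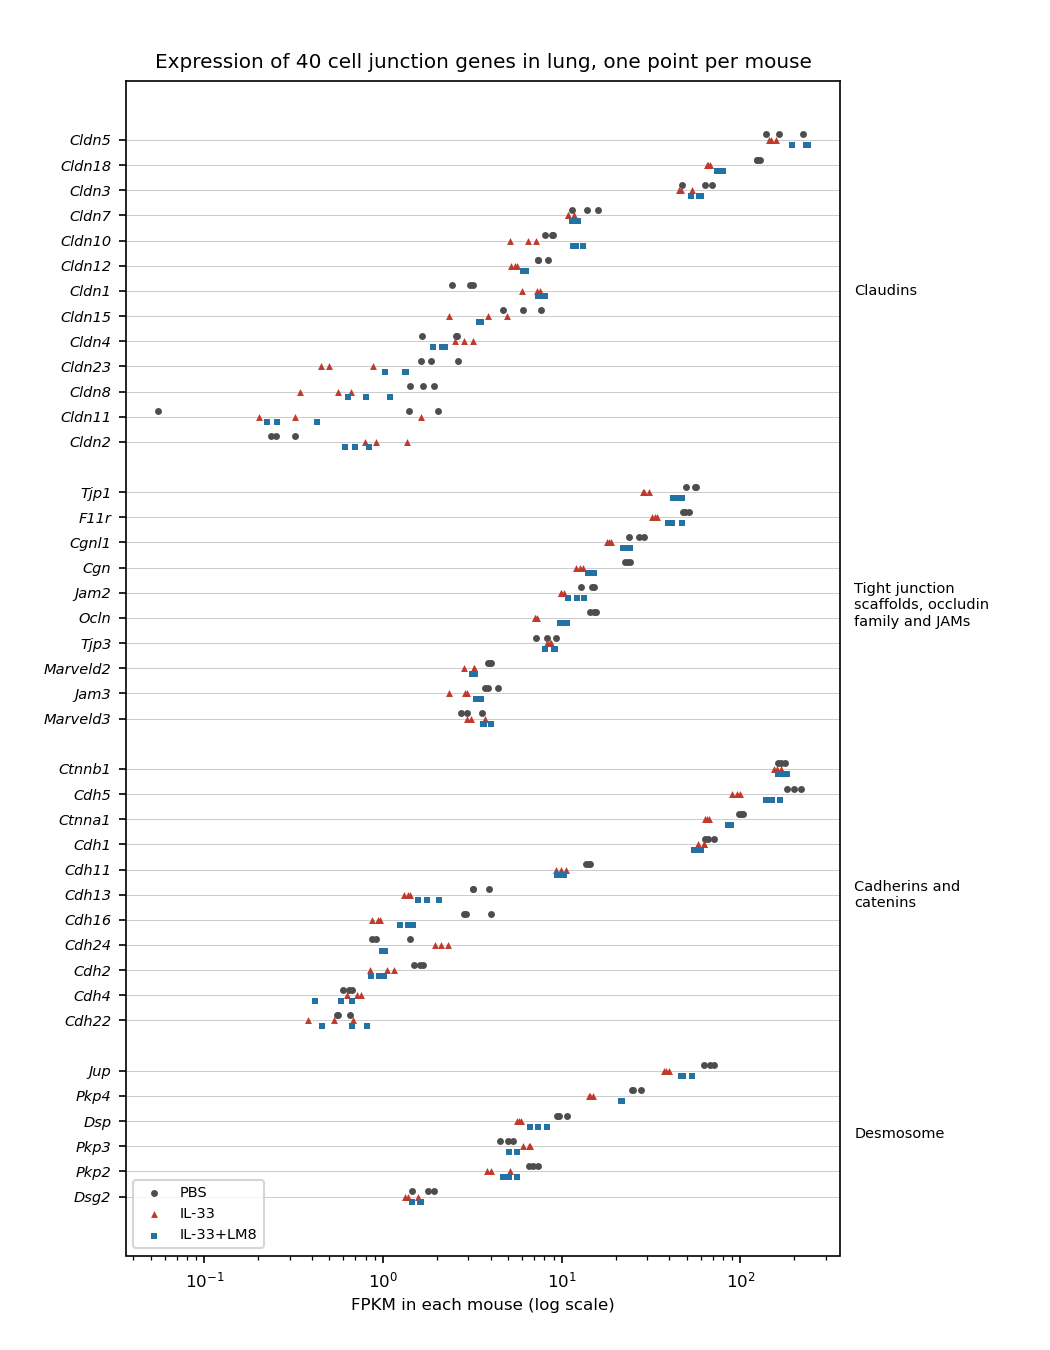
FPKM on a log axis (horizontal) of 40 tested cell junction genes in each of 9 mice, ordered by class and level, with 1 point per mouse and a colour per group. Levels ran from under 1 FPKM (Cldn2, Cdh22) to over 100 (Cldn5, Cdh5, Ctnnb1), and the wide spread of Cldn11 within groups is visible.

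Of the cadherins and catenins, 11 of 25 reached the level for testing. With IL-33, 6 fell (Cdh5, Cdh13, Cdh16, Cdh11, Cdh2 and Ctnna1), 1 rose (Cdh24) and 4 did not pass. Of all tested genes, 27.2% fell and 27.4% rose with IL-33. With LM8 against IL-33, 4 rose, 1 fell and 6 did not pass, beside 12.6% of all tested genes that rose and 13.9% that fell. Against PBS, 5 fell and 6 did not pass, beside 13.4% of all tested genes that fell.

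Cdh5 (ENSMUSG00000031871), VE-cadherin, the cadherin of endothelial adherens junctions, was at 219, 183 and 199 FPKM in the PBS mice, 96.1, 89.2 and 99.3 in the IL-33 mice and 167, 140 and 149 in the IL-33+LM8 mice. The groups did not overlap. VE-cadherin RNA fell with IL-33 (-1.08 ± 0.08, adjusted p = 4.19e-05), rose with LM8 (0.68 ± 0.08, adjusted p = 0.000926) and stood under PBS (-0.38 ± 0.10, adjusted p = 0.0271, up to 0.0912 when 1 mouse was left out). The summed FPKM of 6 endothelial markers was 468 to 490 in PBS mice, 264 to 279 in IL-33 mice and 381 to 420 in the IL-33+LM8 mice, and 5 of the 6 genes fell with IL-33. Emcn was the exception (-0.01, adjusted p = 0.82). Cdh5 and the other endothelial junction gene Cldn5 differed in their course: the ratio of Cdh5 to Cldn5 FPKM was 1.57, 1.11 and 0.888 in the PBS mice, 0.652, 0.621 and 0.628 in the IL-33 mice and 0.862, 0.588 and 0.643 in the IL-33+LM8 mice. Cdh5 overlaps Gm29682 on the other strand.

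Cdh13, a cadherin held to the membrane by a lipid anchor and found on endothelium and smooth muscle, was at 3.93, 3.21 and 3.19 FPKM in the PBS mice, 1.42, 1.38 and 1.31 in the IL-33 mice and 2.06, 1.56 and 1.77 in the IL-33+LM8 mice. It was called lower with IL-33 (-1.33 ± 0.11, adjusted p = 4.75e-05), and remained lower against PBS with LM8 (-0.92 ± 0.13, adjusted p = 0.00264). Cdh16, first known as the kidney cadherin, was at 4.03, 2.84 and 2.91 FPKM, then 0.868, 0.941 and 0.966, then 1.25, 1.46 and 1.38. It had the largest fall among the tested members with IL-33 (-1.81 ± 0.18, adjusted p = 0.00013) and was still called lower against PBS with LM8 (-1.24 ± 0.18, adjusted p = 0.00251). For both genes the IL-33+LM8 mice lay above all IL-33 mice and under all PBS mice. Their rises with LM8 (0.39 ± 0.11, adjusted p = 0.0382 for Cdh13; 0.55 ± 0.16, adjusted p = 0.0389 for Cdh16) each passed in only 1 of the 6 fits that left out a mouse, with adjusted p up to 0.123 and 0.115.

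Cdh24, a little studied cadherin that binds catenins, was at 0.910, 0.866 and 1.42 FPKM in the PBS mice, 2.31, 1.95 and 2.12 in the IL-33 mice and 1.03, 0.981 and 1.02 in the IL-33+LM8 mice. The IL-33 mice were above every other mouse, and the IL-33+LM8 mice lay within the PBS range. It rose with IL-33 (0.99 ± 0.22, adjusted p = 0.0066) and fell with LM8 (-1.07 ± 0.14, adjusted p = 0.0015), the only member called in that comparison. Against PBS its log2 difference was -0.06 ± 0.23 (adjusted p = 0.865), and 0.19 without PBS replicate 3. Gm17606 overlaps it on the other strand.

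Cdh1 and Cdh2 encode E- and N-cadherin, proteins that the study measured, beside others such as vimentin and fibronectin, as signs of epithelial-mesenchymal transition. It did so in lungs of mice given house dust mite and in human airway epithelial cells. It reported less E-cadherin and more N-cadherin in the chronic house dust mite lungs. The values here are RNA from another model. Cdh1 was at 70.7, 63.6 and 65.8 FPKM in the PBS mice, 62.6, 58.1 and 62.3 in the IL-33 mice and 58.0, 60.4 and 54.9 in the IL-33+LM8 mice. The IL-33 mice were under the PBS mice but close to them (-0.13 ± 0.06, adjusted p = 0.109), and LM8 brought no difference that passed (-0.08 ± 0.06 against IL-33, adjusted p = 0.4; -0.19 ± 0.07 against PBS, adjusted p = 0.0886). Cdh2 was at 1.62, 1.68 and 1.49 FPKM, then 0.840, 1.16 and 1.05, then 1.01, 0.946 and 0.857. Cdh2 fell with IL-33 (-0.65 ± 0.15, adjusted p = 0.00714) and with IL-33 and LM8 against PBS (-0.75 ± 0.12, adjusted p = 0.00379), all PBS mice being above all others. The ratio of Cdh1 to Cdh2 FPKM was 42.0 ± 3.49 in PBS mice, 61.4 ± 12.3 in IL-33 mice and 61.8 ± 3.79 in the IL-33+LM8 mice (SD, n = 3 each). Cdh2 is also the cadherin of heart muscle, and all 5 cardiomyocyte markers fell with IL-33, their sum going from 242 to 254 FPKM in PBS mice to 62.6 to 89.8 in IL-33 mice and 83.8 to 127 in the IL-33+LM8 mice. The part of heart or pulmonary vein muscle in the Cdh2 values was not tested.

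The catenins parted. Ctnnb1, beta-catenin, was at 169, 163 and 177 FPKM in the PBS mice, 161, 154 and 169 in the IL-33 mice and 163, 173 and 181 in the IL-33+LM8 mice, and all groups overlapped (-0.07 ± 0.06 with IL-33, adjusted p = 0.352). Ctnna1, alpha-catenin, which links the cadherin complex to actin, was at 103, 97.5 and 101 FPKM, then 66.8, 63.5 and 65.2, then 88.7, 85.3 and 86.6. Ctnna1 fell with IL-33 (-0.63 ± 0.05, adjusted p = 5.25e-05) and rose with LM8 (0.42 ± 0.05, adjusted p = 0.00112), and the groups did not overlap. With LM8 against PBS (-0.20 ± 0.06) its adjusted p was 0.0546 without and 0.0244 with the replicate block. Both genes overlap others on the opposite strand, Ulk4 and Lrrtm2. Cdh11, a cadherin of mesenchymal cells, fell with IL-33 from 14.1 ± 0.440 to 9.94 ± 0.650 FPKM (-0.50 ± 0.06, adjusted p = 0.000323) and was at 9.95 ± 0.457 with LM8. Cdh4 and Cdh22, at under 1 FPKM in every mouse, passed in no comparison.

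Desmosomal genes were tested in 6 of 11 cases. With IL-33, 4 fell (Jup, Pkp4, Dsp and Pkp2), Pkp3 rose and Dsg2 did not pass. Of all tested genes, 27.2% fell and 27.4% rose in that comparison. With LM8 against IL-33, 3 rose, 1 fell and 2 did not pass, beside 12.6% of all tested genes that rose and 13.9% that fell. Against PBS 4 fell and 2 did not pass, beside 13.4% of all tested genes that fell.

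Jup, plakoglobin, which serves desmosomes and adherens junctions alike, was at 71.0, 62.2 and 67.1 FPKM in the PBS mice, 37.4, 39.8 and 38.4 in the IL-33 mice and 53.6, 46.3 and 47.5 in the IL-33+LM8 mice. Groups did not overlap. Its log2 fold change was -0.80 ± 0.07 with IL-33 (adjusted p = 6.12e-05), 0.35 ± 0.07 with LM8 against IL-33 (adjusted p = 0.00771) and -0.43 ± 0.09 against PBS (adjusted p = 0.00961). Pkp4, a plakophilin relative that also sits at adherens junctions, was at 25.01, 27.8 and 24.6 FPKM, then 15.0, 14.3 and 14.4, then 21.5, 21.4 and 21.6. Pkp4 fell with IL-33 (-0.83 ± 0.06, adjusted p = 2.53e-05) and rose with LM8 (0.56 ± 0.04, adjusted p = 0.00021).

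Dsp, desmoplakin, which binds keratin filaments, was at 10.7, 9.38 and 9.68 FPKM in the PBS mice, 5.80, 5.94 and 5.63 in the IL-33 mice and 8.30, 6.60 and 7.40 in the IL-33+LM8 mice. With IL-33 it fell (-0.78 ± 0.07, adjusted p = 6.21e-05) and rose with LM8 (0.36 ± 0.08, adjusted p = 0.0178, up to 0.0677 when 1 mouse was left out). Pkp3, an epithelial plakophilin, went the other way. It was at 4.51, 5.35 and 4.97 FPKM in the PBS mice, 6.67, 6.55 and 6.06 in the IL-33 mice and 5.63, 5.07 and 5.07 in the IL-33+LM8 mice, the IL-33 mice being above all others. Its log2 fold change was 0.38 ± 0.09 with IL-33 (adjusted p = 0.00934) and -0.29 ± 0.08 with LM8 against IL-33 (adjusted p = 0.0347, up to 0.128 when 1 mouse was left out). Pkp2, a plakophilin abundant in heart, fell with IL-33 from 6.95 ± 0.395 to 4.33 ± 0.708 FPKM (-0.68 ± 0.12, adjusted p = 0.00193). In the same mice the sums of the cardiomyocyte, alveolar, club, ciliated and endothelial markers were lower. The part of these cells in the Pkp2 values was not tested.

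The 28 members under the level for testing were Cldn6, Cldn9, Cldn13, Cldn14, Cldn17, Cldn19, Cldn20, Cldn22, Cldn24, Cdh3, Cdh6 to Cdh10, Cdh12, Cdh15, Cdh17 to Cdh20, Cdh23, Cdh26, Dsg1a, Dsg1c, Dsc2, Dsc3 and Pkp1. Of these, 21 had a mean under 0.2 FPKM, with no mouse above 0.282, and Cldn17 and Cldn22 had at most 3 reads in every mouse. In a fit without a minimum level, 2 of the 28 passed with IL-33 against PBS, both higher, where 13.4% of all 33355 genes in that fit rose, and 1 rose with LM8 against PBS, where 7.35% of 33081 did. Dsc2, a desmosomal cadherin of simple and stratified epithelia, was at 0.221, 0.229 and 0.314 FPKM in the PBS mice, 0.533, 0.536 and 0.513 in the IL-33 mice and 0.541, 0.578 and 0.586 in the IL-33+LM8 mice (1.04 ± 0.25, adjusted p = 0.0176 with IL-33; 1.19 ± 0.24, adjusted p = 0.0171 with LM8 against PBS). Dsg1a, whose reads may be shared with its near-identical copies, had 0 reads in all 3 PBS mice, where a count of 0 allows up to 3 reads, 46, 14 and 23 reads in the IL-33 mice and 6, 4 and 16 in the IL-33+LM8 mice. Cdh17 had a mean of 0.169 FPKM in PBS mice, 0.802 in IL-33 mice and 0.269 in the IL-33+LM8 mice and did not pass.

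Related genes outside the symbol rule were counted from fixed lists. Over all tested genes 27.2% fell and 27.4% rose with IL-33, and 6.24% were called lower. With LM8 against IL-33 12.6% rose and 13.9% fell, and with LM8 against PBS 13.4% fell. Of the junction polarity scaffolds, which set the apical side of an epithelial cell, 13 of 16 tested fell with IL-33 and none rose, and with LM8 against IL-33 11 rose and none fell (the counts of 0 stayed 0 at an unadjusted p under 0.05 and by DESeq2 and limma, as for the other lists that follow). Pals1 (-1.16, adjusted p = 3.1e-06), Pard6g (-1.08, adjusted p = 1.9e-05) and Magi3 (-1.02, adjusted p = 1.4e-05) had the largest falls. Of the nectins and catenin partners, 6 of 10 fell and 1 rose with IL-33, Nectin3 (-1.22, adjusted p = 2.5e-06) being called, and with LM8 against IL-33 4 rose and 2 fell. All 3 desmosome linkers fell with IL-33 and against PBS with LM8, with Ppl (periplakin) called (-1.02, adjusted p = 1.7e-05). Of the angulins and JAM relatives, 4 of 6 fell with IL-33 and 3 rose with LM8 against IL-33, among them Esam of endothelium (-0.76, then 0.62).

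The connexins of gap junctions moved in both directions, in shares near those of all tested genes. Of 9 tested, 3 rose and 3 fell with IL-33, beside 27.4% and 27.2% of all tested genes. Gjb5 (2.10, adjusted p = 0.0015) was among those called higher and Gjb6 (-1.20, adjusted p = 0.0017) was called lower, and Gja1, the common connexin 43, rose (0.61, adjusted p = 0.00013). With LM8 against IL-33, 1 rose and 1 fell, beside 12.6% and 13.9% of all tested genes.

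Transcripts of factors and marker proteins of epithelial-mesenchymal transition were measured in the same mice. The shares over all tested genes were 27.4% that rose and 27.2% that fell with IL-33. With LM8 against IL-33 they were 12.6% and 13.9%. Of 5 tested factors of the Snail, Zeb and Twist families, 2 rose with IL-33 (Snai3, 1.44, adjusted p = 0.026, and Zeb2, 0.31, adjusted p = 0.00082) and Zeb1 fell (-0.78, adjusted p = 1.5e-05), while Snai1 did not pass (0.30, adjusted p = 0.11). Transcripts of all 3 mesenchymal proteins on the list rose with IL-33, Fn1 (fibronectin) by 1.73, Vim (vimentin) by 0.85 and Acta2 (smooth muscle actin) by 0.83 on the log2 scale. With LM8 against IL-33, Fn1 (-1.25) and Vim (-0.37) fell, and Acta2 did not pass (0.18, adjusted p = 0.19). Of 10 tested epithelial transcription factors, 4 fell with IL-33, Grhl1 (-1.04, adjusted p = 0.00029) being called, and none rose. Fibroblasts, smooth muscle and leukocytes also express the mesenchymal genes, and the part of these factors and cells in the junction gene values was not tested.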

How the data were processed

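Whole lung RNA of 9 mice was sequenced by the authors' company as paired reads, and the submitters' notes name mm10, HISAT2 2.0, StringTie 1.3.0 and Bowtie 0.12.2, without their roles. A single table was deposited, in which the authors give for each gene and mouse a raw count of reads and an FPKM value. The table's coordinates differ from those of GRCm38 (of 32643 gene identifiers found in GENCODE M21, 583 had the same start and end), so none of them is printed. Strand use in counting is not given in the sources used here, nor is any removal of duplicate reads.

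Samples were grouped by the treatment label. Members and lists were chosen with earlier results of these data known. Genes were kept where the 9 mice averaged 0.5 FPKM or more and at least 1 fitted mouse had a read, and were tested on counts with edgeR 4.0.16 (R 4.3.3, TMM factors, glmQLFit and glmQLFTest), 6 mice per fit, with Benjamini-Hochberg adjustment. A standard error is the log2 fold change divided by the square root of F. Levels are FPKM, mean ± SD of 3 mice. Values in every mouse are given for members called with a log2 fold change of at least 1 in any comparison, for the 4 most abundant of each class, and for Cdh1 and Cdh2; 1 member and 1 gene of a related list are counted but not reported here. Alternatives were other scalings, FPKM minimums, DESeq2 1.42.0, limma 3.58.1 on log2(FPKM + 1) and log2(FPKM + 0.1), a joint fit of the 9 mice, a block for the replicate number, and leaving out each mouse. Leaving out the 3 libraries that deviated together was chosen after seeing the data. The script was tested on simulated data.

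Replicate numbers in the sample titles were checked for pairing by correlating the deviations of same-numbered mice from their group means. The correlation was 0.307 to 0.672 in IL-33+LM8 against PBS, above 0.1 for every pair, so that the blocked value is printed there where it changes a call; no label ties the numbers to a litter, batch or day. In the other comparisons at least 1 pair was negative. No 2 libraries of a group agreed within sampling noise. Counts cover counting error only, since no molecular identifiers are described.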

Additional observations from a re-analysis of the deposited data

How the results depend on the processing

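Counts of junction genes that passed or were called kept within 1.5 times their value under most alternatives. With a minimum mean of 5 FPKM, the genes called were 3 in place of 8 with IL-33 against PBS, 0 in place of 1 with IL-33+LM8 against IL-33 and 1 in place of 3 with IL-33+LM8 against PBS, since fewer genes are tested; limma on log2(FPKM + 1) also gave 3, 0 and 1, a scale that understates low genes. In IL-33+LM8 against IL-33, DESeq2 and the fit of all 9 mice each called 2 genes. Leaving out 1 mouse gave 8 to 9, 1 to 3 and 3 to 5 called genes in the 3 comparisons (3 without IL-33 replicate 2, 2 without IL-33+LM8 replicate 3; 5 without PBS replicate 3 and without IL-33+LM8 replicate 1), and 27 to 29, 11 to 16 and 12 to 20 genes that passed. Without the 3 libraries that deviated together, 2 genes were called and 7 passed in IL-33+LM8 against IL-33, and 12 passed in IL-33+LM8 against PBS. The cause was not tested, apart from the smaller number of mice.

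With the replicate block, 27, 12 and 23 junction genes passed in the 3 comparisons and 9, 1 and 3 were called. In the first 2 the mice share only a number (correlations of -0.419 to 0.28 and -0.397 to 0.222). The block changed no other call against PBS with LM8 than those given.

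Among the 24 members given in every mouse by the rule for named genes, directions turned for differences that did not pass, in IL-33+LM8 against PBS. Leaving out 1 mouse gave log2 fold changes of -0.182 to 0.192 for Cdh24 (0.192 without PBS replicate 3), -0.189 to 0.07 for Cldn3 (0.07 without PBS replicate 2, 0.004 without IL-33+LM8 replicate 3) and -0.001 to 0.08 for Ctnnb1 (-0.001 without IL-33+LM8 replicate 3). Without the 3 libraries the values were 0.188 for Cdh24 and 0.039 for Cldn3. Among the other members, leaving out 1 mouse also turned differences that did not pass, for Tjp3, Marveld3 and Cdh22 with IL-33 against PBS, for Cdh11, Cldn15, Cldn11 and Marveld2 in IL-33+LM8 against IL-33, and for Cdh22 in IL-33+LM8 against PBS. Over the 24 members and the alternatives, 1098 values kept direction and call, 66 no longer passed, 33 newly passed and 6 turned. Other scalings moved the median gene by under 0.1 on the log2 scale. Depth limits mainly the low members, Cldn2, Cldn8, Cldn23 and those not tested.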
